A study of Saccharomyces cerevisiae with 8 samples.

Results

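The 5.8S rRNA is listed as RDN58-1, a reference that runs from nucleotide A1 to U158, in the read-end tables of yeast carrying PRP43 behind a GAL promoter. It is 1 of 11 references there, which hold 8112 nucleotides (nt) in all, and every row under that name was taken. The series has 8 libraries of whole cell RNA from budding yeast, Saccharomyces cerevisiae, in 4 groups of 2, and 5.8S was read in 4 of them. PRP43_Glu is the pGAL_PRP43 strain labelled Glu (replicates A and B), and PRP43_Gal is the same strain labelled Gal (replicates A and B). The media named in the labels hold 2% glucose or galactose with yeast extract and peptone, a synthetic medium without leucine is named as well, and the time in each medium is not given. Carbon source and promoter state change together between these groups and cannot be told apart, and PRP43 mRNA was not analysed here. The series design states biological duplicates.

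The 5.8S rRNA is an RNA of the large ribosomal subunit, cut from the same precursor as 18S and 25S, and in the mature subunit it is base-paired with 25S. Its ends are made mostly by exonucleases that trim the spacers on either side. Prp43 is a DEAH-box RNA helicase that acts in pre-mRNA splicing and in the assembly of both ribosomal subunits, and a GAL promoter is active in galactose and repressed in glucose. In RiboMeth-seq, RNA is cleaved by alkali and the ends of the fragments are counted. A methylated ribose resists this cleavage at the bond that follows it, so that fragments rarely stop at such a nucleotide or start just after it.

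The whole reference is shown because every value below is placed on it by nucleotide number. It is printed as the deposited tables give it, 5' to 3', and the capitals mark G116 to C137, the longest run with under 300 RPM (defined below) in both group means.
RDN58-1: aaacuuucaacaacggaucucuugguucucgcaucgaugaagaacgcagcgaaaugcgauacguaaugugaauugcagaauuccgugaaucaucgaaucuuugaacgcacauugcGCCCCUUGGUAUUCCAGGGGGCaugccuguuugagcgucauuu
The gene lies on chromosome XII, where the RefSeq gene table also lists RDN58-2, and reads from such copies of the same RNA cannot be assigned to one of them. An RNAfold prediction for this RNA alone, without its 25S partner, gave 54 base pairs, and 9 of them close G116 to C137 into a hairpin.

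A read end marks where a mapped fragment starts or stops, and its count per nucleotide is the deposited measurement. The files held 395157 and 554518 read ends on 5.8S in PRP43_Glu replicates A and B, against 1965981 and 1450645 in PRP43_Gal replicates A and B. On 18S plus 25S they held 5557319 and 7045005 in PRP43_Glu, against 12390972 and 14191112 in PRP43_Gal. Levels below are read ends per 1000000 read ends on 18S plus 25S of the same library (RPM), and levels of 5' or 3' ends alone are per 1000000 ends of that kind. At 55 annotated methylation sites of 18S and 25S, 5' ends had a median of 0.105 of their surroundings at the site itself and 3' ends of 0.175, with medians of 1.00 to 1.03 for both kinds at the nucleotide on either side. A 5' end recorded at nucleotide N therefore belongs to a read that begins at N + 1, and both kinds of end at N report the bond on the 3' side of N. None of these 55 sites lies in 5.8S.

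Read ends on 5.8S were lower in PRP43_Glu than in PRP43_Gal, and the 2 PRP43_Gal libraries lay far apart. The level was 71106 and 78711 RPM in PRP43_Glu replicates A and B, against 158662 and 102222 in PRP43_Gal replicates A and B. The groups did not overlap, but the lowest PRP43_Gal library was only 1.30 times the highest PRP43_Glu library, and PRP43_Gal replicate A was 1.55 times replicate B. The means were 74908 ± 5378 in PRP43_Glu and 130442 ± 39909 in PRP43_Gal (SD, n = 2 each), a log2 difference of -0.77. An exact two-sided permutation test gave p = 0.33, the smallest value that 2 libraries against 2 allow. Without PRP43_Gal replicate A the log2 difference was -0.45, and without replicate B it was -1.08.

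Per nucleotide, 5.8S held more read ends than either of the long rRNAs in all 4 libraries. Its mean level per nucleotide was 450 and 498 RPM in PRP43_Glu, against 1004 and 647 in PRP43_Gal. The 25S rRNA had 204 and 202 per nucleotide in PRP43_Glu, against 195 and 199 in PRP43_Gal. The 18S rRNA had 170 and 174 in PRP43_Glu, against 188 and 179 in PRP43_Gal. The scale fixes the sum of 18S and 25S, so these 2 are no independent contrast to 5.8S. The ratio of 5.8S to 25S, both per nucleotide, was 2.20 and 2.46 in PRP43_Glu, against 5.16 and 3.24 in PRP43_Gal. Mature ribosomes hold these RNAs in equal number, and how well fragments of each RNA were released, size-selected and mapped was not measured.

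**Figure D1:**
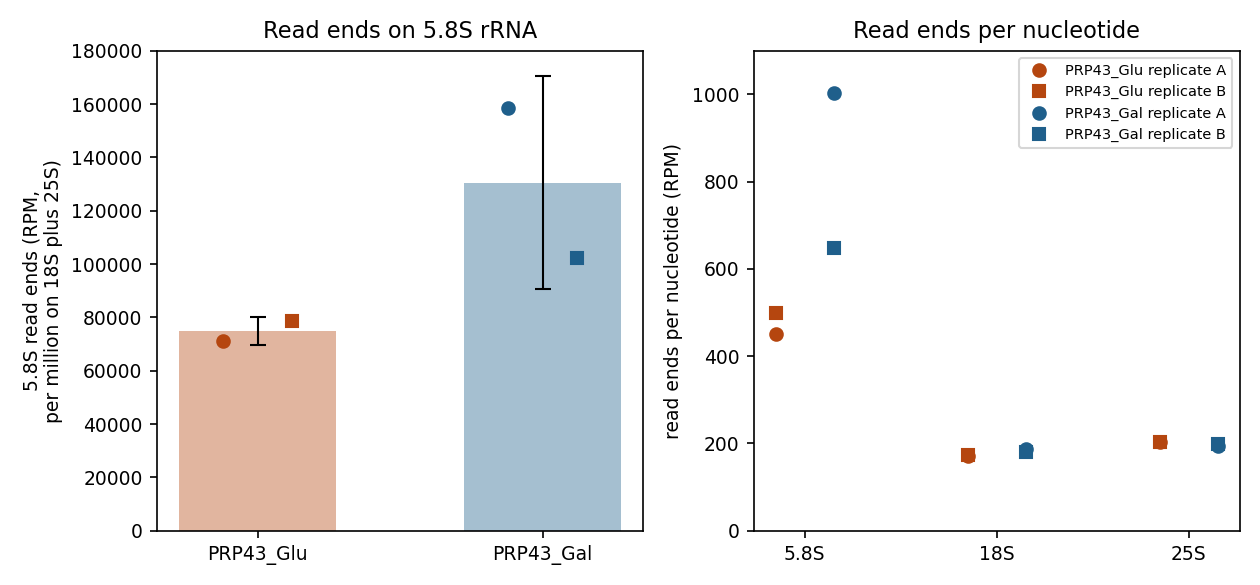
Read ends on 5.8S rRNA by library. Left, 5.8S read ends in RPM (per 1000000 read ends on 18S plus 25S), with bars at the mean, error bars of 1 SD (n = 2) and points for replicates A (circles) and B (squares). Right, read ends per nucleotide of 5.8S, 18S and 25S in the same unit. PRP43_Glu lies at 71106 and 78711 RPM and PRP43_Gal at 158662 and 102222, and the sum of 18S and 25S is fixed by the scale.

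Of the read ends on the 3 rRNAs together, 5.8S took 6.64% and 7.30% in PRP43_Glu, against 13.7% and 9.27% in PRP43_Gal. The 95% Wilson intervals of these shares are narrow, 6.62% to 6.66% for the smallest and 13.68% to 13.71% for the largest. These intervals, like those below, cover counting error only, because amplified reads without molecular identifiers are not independent molecules. The PRP43_Gal duplicates thus differed by far more than intervals of this width cover, and the counting error of molecules is not known. Fragment length moved with the groups on all 3 rRNAs. The mean read length on 5.8S was 30.9 and 31.4 nt in PRP43_Glu, against 34.2 and 32.8 nt in PRP43_Gal. On 18S it was 32.8 and 33.0 nt in PRP43_Glu, against 36.6 and 34.8 nt in PRP43_Gal, and its part in the 5.8S results was not tested. In whole cell RNA, fewer molecules of 5.8S and fewer usable fragments per molecule cannot be told apart.

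Among the other references, the 2 whose levels over the 4 libraries lay nearest to the pattern of 5.8S were the spliceosomal RNAs U5 and U6. Likeness was the distance between log2 levels over the 4 libraries after each reference's own mean was taken off, 0.57 for U5 and 0.78 for U6. U5 had 87.3 and 152 RPM in PRP43_Glu, against 185 and 142 in PRP43_Gal, so its groups overlapped. U6 had 200 and 205 in PRP43_Glu, against 306 and 145 in PRP43_Gal, and its groups overlapped as well. Neither pattern is close, since PRP43_Gal replicate B fell on the other side of PRP43_Glu for U6. 3 references (U14, U3a and U3b) are listed at 0 in all 4 libraries.

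Along the molecule the pattern of cleavage was much the same in all 4 libraries, and the lower level in PRP43_Glu was spread over most of its length. Over A1 to U158, log2 levels correlated at r = 0.91 between the PRP43_Glu duplicates, 0.94 between the PRP43_Gal duplicates and 0.88 to 0.92 across groups. These values describe nucleotides of one RNA, which share its sequence and its library. The most read ends lay in the middle of the molecule. U60 had 1397 and 1387 RPM in PRP43_Glu, against 2801 and 2265 in PRP43_Gal. C57 had 1307 and 1501 in PRP43_Glu, against 2251 and 1976 in PRP43_Gal. U67 had 1277 and 1281 in PRP43_Glu, against 2773 and 1515 in PRP43_Gal. At each of these 3 nucleotides the groups did not overlap, with PRP43_Glu the lower, and none passed the test described below.

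Read ends were sparsest at G in all 4 libraries. Read ends at G averaged 0.746 and 0.723 of the molecule's mean in PRP43_Glu, against 0.710 and 0.684 in PRP43_Gal. Read ends at C averaged 1.22 and 1.12 of that mean in PRP43_Glu, against 1.22 and 1.22 in PRP43_Gal. A and U lay between 0.983 and 1.14 in the 4 libraries.

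**Figure D2:**
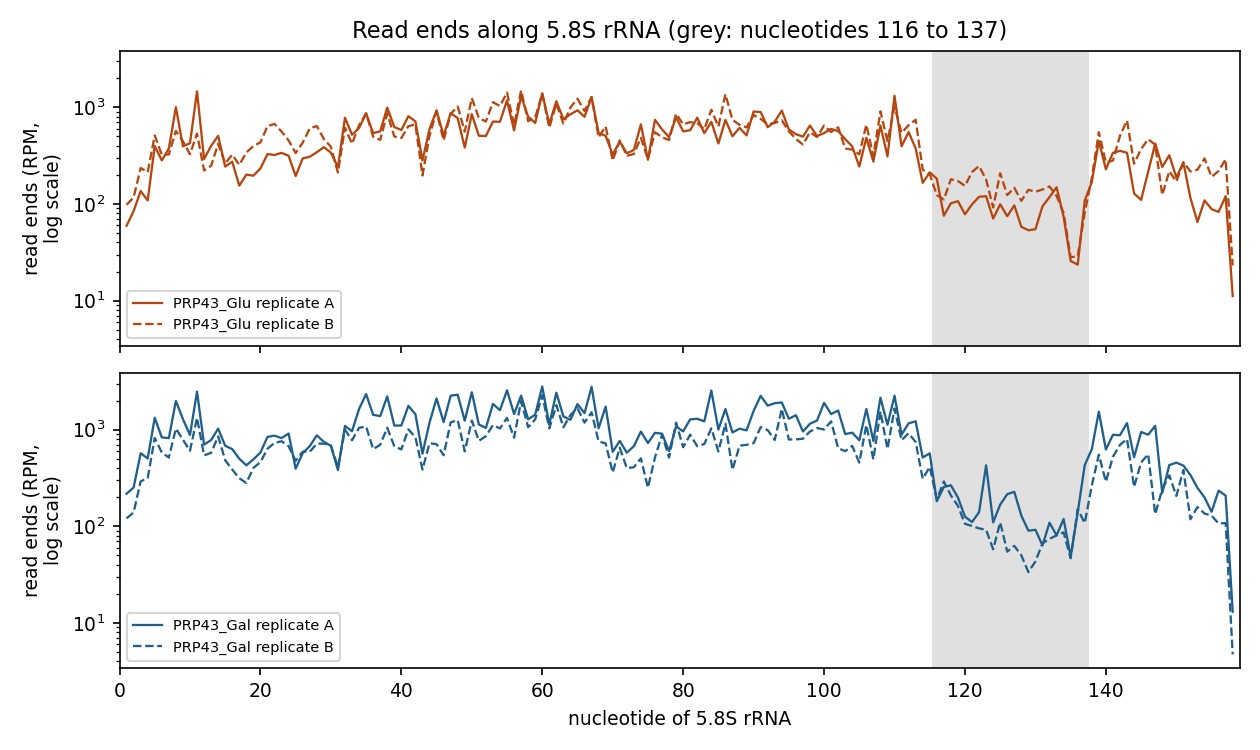
Read ends in RPM (log scale) against the nucleotide of 5.8S rRNA, in PRP43_Glu above and PRP43_Gal below. Solid lines are replicate A and dashed lines replicate B, and the grey band is G116 to C137. The 4 profiles share their peaks, such as U60, and all drop in the grey band and at U158.

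Each nucleotide was tested with edgeR's quasi-likelihood test on the summed 5' and 3' read ends, fitted over 5353 nt of all references with a mean of at least 50 read ends. A nucleotide passed at a Benjamini-Hochberg adjusted p under 0.05. Every nucleotide of 5.8S entered the test. Only G136 passed as lower in PRP43_Glu, 1 nt of 5.8S, while 0.168% of all tested nucleotides passed as lower. None passed as higher, where the share of all tested nucleotides was 1.14%. At an unadjusted p under 0.05, 64 nt of 5.8S were lower and none higher, while the shares over all tested nucleotides were 4.69% lower and 8.09% higher.

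The count of passing nucleotides rests heavily on single libraries. It was 58 nt without PRP43_Gal replicate B, where 2% of all tested nucleotides passed as lower. It was 2 without PRP43_Gal replicate A (0.636% of all), 2 without PRP43_Glu replicate B (0.0933% of all) and 0 without PRP43_Glu replicate A (0.056% of all). DESeq2 on the same scale passed 10 nt as lower and none as higher, where the shares over all tested nucleotides were 0.504% and 1.87%. The fitted log2 change was below 0 at 145 nt and above 0 at 13, with a median of -0.78, against a median of 0.03 over all tested nucleotides. The medians were -0.07 on 18S and 0.10 on 25S. At 111 nt of 5.8S (70.3%) the 2 PRP43_Glu libraries were both lower than either PRP43_Gal library, and the share over all tested nucleotides was 18.4%. They were both higher at 3 nt, A131, G132 and G133, where the share over all tested nucleotides was 23.3%. Nucleotides of one RNA share its total, so these counts are not independent of the difference in total given above.

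**Figure D3:**
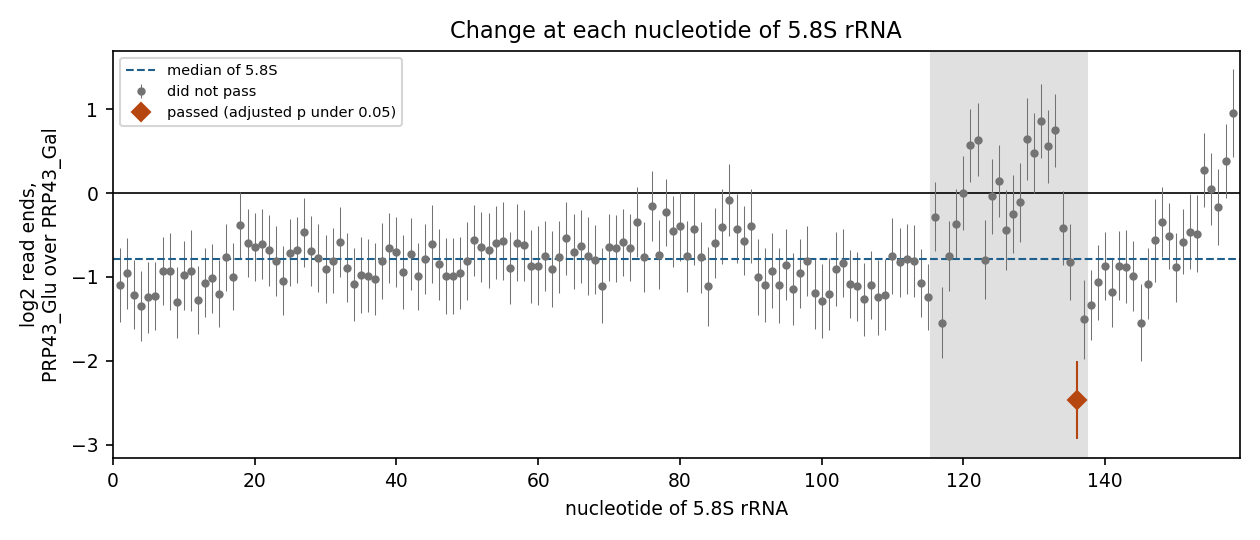
Log2 change of read ends (PRP43_Glu over PRP43_Gal, with the standard error of the fit) at each nucleotide of 5.8S rRNA. The diamond is G136, which passed at an adjusted p under 0.05, the dashed line is the 5.8S median of -0.78 and the grey band is G116 to C137. Most points lie near the median, and the points above 0 lie in the grey band or in the last 5 nt.

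G136 is in the 3' arm of the predicted hairpin, where it is paired with C117. In the stretch, printed again below with C117 and G136 in capitals, these 2 nucleotides had the largest negative log2 changes of the whole molecule. C117 did not pass and lay just ahead of U145, outside the stretch (-1.55 against -1.54). Of the 22 nt of the stretch, 13 had a negative and 9 a positive change.
G116 to C137: gCcccuugguauuccaggggGc
G136 had 23.6 and 28.8 RPM in PRP43_Glu, against 139 and 151 in PRP43_Gal. The duplicates lay close together and the groups far apart. The means were 26.2 ± 3.71 in PRP43_Glu and 145 ± 8.50 in PRP43_Gal (SD, n = 2 each), with a fitted log2 change of -2.47 ± 0.47 (SE) and an edgeR adjusted p of 0.00115. Most of these were 3' ends, 120 and 160 reads in PRP43_Glu, against 1694 and 2115 in PRP43_Gal. The 5' ends were 11 and 43 reads in PRP43_Glu, against 29 and 29 in PRP43_Gal, too few for a test of their own. Levels were also scaled to the 5.8S total of each library, so that on 5.8S only the position of ends counts. On that scale the log2 change at G136 was -1.75 with an edgeR adjusted p of 0.12. No nucleotide of any reference passed as lower in that fit, where the median log2 change over all tested nucleotides was 0.76. The missed threshold is therefore not particular to G136. With 3' ends alone G136 also missed the threshold (edgeR adjusted p = 0.196), in a fit where no nucleotide of any reference passed. Without PRP43_Glu replicate A the log2 change at G136 was -2.33.

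The next largest differences did not pass. C117 had 75.6 and 111 RPM in PRP43_Glu, against 256 and 291 in PRP43_Gal, a log2 change of -1.55 with an edgeR adjusted p of 0.0503. U145 had 110 and 370 in PRP43_Glu, against 946 and 457 in PRP43_Gal (log2 -1.54, adjusted p = 0.075). C4, near the 5' end and paired with G152 in the prediction, had 109 and 214 in PRP43_Glu, against 504 and 317 in PRP43_Gal (log2 -1.34, adjusted p = 0.0955). At these 3 nucleotides the groups did not overlap. C137 had 108 and 81.6 in PRP43_Glu, against 430 and 108 in PRP43_Gal (log2 -1.50, adjusted p = 0.105), and its difference lies in PRP43_Gal replicate A. A138 had 168 and 186 in PRP43_Glu, against 628 and 265 in PRP43_Gal (log2 -1.33, adjusted p = 0.102), with groups that did not overlap.

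The log2 changes were not even along the molecule, which was cut into 3 segments. From A1 to A53 the log2 change was negative at 53 of 53 nt (median -0.90), from A54 to C106 at 53 of 53 nt (median -0.75) and from G107 to U158 at 39 of 52 nt (median -0.57). As shares of the 5.8S read ends, the 5' segment held 35.4% and 34.4% in PRP43_Glu, against 36.9% and 35.8% in PRP43_Gal, without overlap. The middle segment held 49.6% and 47.4% in PRP43_Glu, against 46.5% and 48.3% in PRP43_Gal. The 3' segment held 14.9% and 18.2% in PRP43_Glu, against 16.7% and 15.9% in PRP43_Gal. The groups overlapped in the middle and the 3' segment. Exact two-sided permutation tests gave p = 0.33 for the 5' segment, 0.667 for the middle segment and 1 for the 3' segment, and each was 1 after Benjamini-Hochberg adjustment over the 3.

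Within the 3' segment, the hairpin from G116 to C137 gave other values than the remaining molecule. This stretch was picked for its low level in these libraries and carries no test of its own. It held 1985 and 2969 RPM in PRP43_Glu, against 3727 and 2273 in PRP43_Gal, and the groups overlapped. The log2 change was negative at 13 of its 22 nt, with a median of -0.18, and at 132 of the 136 other nt, with a median of -0.81.

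The 2 kinds of read end differed in opposite directions in this hairpin. Its 3' ends were 2300 and 3029 RPM in PRP43_Glu, against 6264 and 3499 in PRP43_Gal. Its 5' ends were 1669 and 2909 RPM in PRP43_Glu, against 1185 and 1043 in PRP43_Gal. Neither pair of groups overlapped, and PRP43_Glu was the lower for 3' ends and the higher for 5' ends. As a share of all 5' ends of 5.8S, the stretch held 2.35% and 3.74% in PRP43_Glu, against 0.755% and 1.03% in PRP43_Gal. In a fit of 5' ends alone over 5237 nt, 20 nt of the stretch were tested and 17 had a positive log2 change, with a median of 1.58. Of the 115 nt tested outside the stretch, 114 had a negative one, with a median of -0.82. In 3' ends alone, 18 of the 22 nt of the stretch were negative, with a median of -0.81. Outside the stretch the median in 3' ends alone was -0.78. By these medians, only the 5' ends of the stretch departed from the remaining molecule.

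The nucleotides that passed in 5' ends alone are named although they were picked after their values were seen. 3 passed as higher in PRP43_Glu, A126, U128 and C130, where 1.37% of all nucleotides tested on 5' ends passed as higher. A126 had 68.1 and 126 RPM of 5' ends in PRP43_Glu, against 20.5 and 24.6 in PRP43_Gal (log2 2.11, edgeR adjusted p = 0.0266). U128 had 23.4 and 71.9 in PRP43_Glu, against 7.92 and 13.5 in PRP43_Gal (log2 2.15, adjusted p = 0.0407). C130 had 45.0 and 93.5 in PRP43_Glu, against 11.5 and 22.7 in PRP43_Gal (log2 2.02, adjusted p = 0.0487). At all 3 the groups did not overlap, and PRP43_Glu replicate B stood well above replicate A. With 3' ends alone the log2 change was -1.29 at A126, -0.51 at U128 and 0.02 at C130, and none of these passed.

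4 neighbouring nucleotides passed as lower in 5' ends alone, C91, A92, U93 and C94, where the share over all nucleotides tested was 0.286%. A92 had 178 and 146 RPM of 5' ends in PRP43_Glu, against 1128 and 359 in PRP43_Gal (log2 -2.20, edgeR adjusted p = 0.00714). U93 had 231 and 198 in PRP43_Glu, against 1583 and 407 in PRP43_Gal (log2 -2.21, adjusted p = 0.00906). PRP43_Gal replicate A stood far above its duplicate at both. No nucleotide of 5.8S passed in 3' ends alone with edgeR, and neither did any of the 5244 nt tested over all references. Of 137 tested nt of 5.8S, 30 had an unadjusted p under 0.05, all of them lower in PRP43_Glu. The share over all nucleotides tested was 12.9%, counted in either direction.

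A read that begins in the hairpin can run no further than U158, which limits its length, most tightly on the hairpin's 3' side. Reads were shorter in PRP43_Glu on all 3 rRNAs. Windows at the same distance from the 3' end of the long rRNAs are given beside the hairpin. In nucleotides 1758 to 1779 of 18S 5' ends had 3946 and 4487 RPM in PRP43_Glu, against 4308 and 3407 in PRP43_Gal. In nucleotides 3354 to 3375 of 25S they had 5553 and 2724 in PRP43_Glu, against 2810 and 4554 in PRP43_Gal. The 3' ends of the 18S window had 2010 and 2310 RPM in PRP43_Glu, against 1376 and 2267 in PRP43_Gal. In both windows the groups overlapped for 5' ends and for 3' ends. The 3' ends of the 25S window had 12215 and 9966 in PRP43_Glu, against 10080 and 9460 in PRP43_Gal. The part of read length in the hairpin's values was not tested. Each library also carries a barcode of its own, per the file headers, so barcode and library cannot be told apart.

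**Figure D4:**
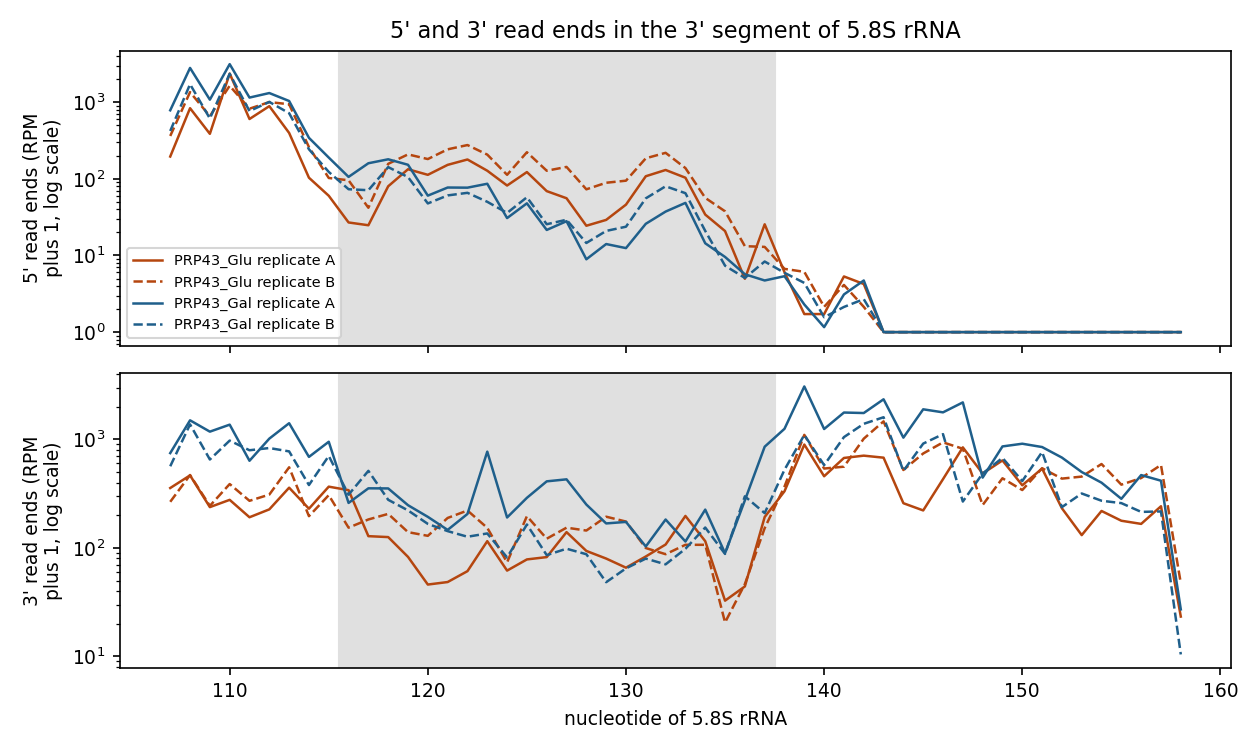
5' read ends (above) and 3' read ends (below) in RPM plus 1 (log scale) for G107 to U158 of 5.8S rRNA. Lines are the 4 libraries and the grey band is G116 to C137. Most of the band has more 5' ends in both PRP43_Glu libraries, whereas 3' ends at G136 lie lower in both.

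The 2 RNA ends were then examined, where read ends come from one kind only. No 3' end lay before nucleotide 15 and no 5' end after nucleotide 142 in any of the 4 libraries. The first 10 nt, which hold 5' ends alone, had 3270 and 3169 RPM in PRP43_Glu, against 8675 and 5205 in PRP43_Gal. All 10 of these nucleotides were lower in both PRP43_Glu libraries than in both PRP43_Gal libraries, with a median log2 change of -1.16. The same held at 70.3% of nucleotides over the whole molecule and at 18.4% of all tested nucleotides. Neighbours on one RNA share its total, so this count is not independent of the difference in total. The last 10 nt, which hold 3' ends alone, had 1370 and 2124 in PRP43_Glu, against 2696 and 1687 in PRP43_Gal, and the groups overlapped.

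5' ends recorded at A1, of reads that begin at the second nucleotide, numbered 331 and 691 in PRP43_Glu, against 2693 and 1715 in PRP43_Gal. They made up 0.168% and 0.252% of the 5' ends of 5.8S in PRP43_Glu, against 0.277% and 0.239% in PRP43_Gal. These groups overlapped, and an exact two-sided permutation test gave p = 0.667. A1 had a log2 change of -1.10 with an edgeR adjusted p of 0.255.

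Reads that begin at nucleotide 1 itself have no row for their 5' end and were counted as the excess of 3' over 5' ends. They numbered 907 and 6776 in PRP43_Glu, against 23231 and 15145 in PRP43_Gal. As a share of 5.8S reads they were 0.458% and 2.41% in PRP43_Glu, against 2.34% and 2.07% in PRP43_Gal. The 95% Wilson interval was 0.429% to 0.489% in PRP43_Glu replicate A and 2.36% to 2.47% in replicate B. These duplicates thus differed by more than the intervals cover. Reads that map only in part, as from forms of 5.8S with a longer 5' end, were not analysed here.

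At the 3' end, reads that stop at U158 were rare. They numbered 62 and 163 in PRP43_Glu, against 162 and 67 in PRP43_Gal, while 670 and 2045 in PRP43_Glu and 2574 and 1532 in PRP43_Gal stopped a nucleotide earlier. As a share of 3' ends, U158 held 0.0313% and 0.0581% in PRP43_Glu, against 0.0163% and 0.00914% in PRP43_Gal. The groups did not overlap and PRP43_Glu was the higher, with an exact two-sided permutation p of 0.33, the smallest possible. The 95% Wilson intervals were 0.0244% to 0.0401% and 0.0498% to 0.0677% in PRP43_Glu replicates A and B, against 0.0140% to 0.0190% and 0.00720% to 0.0116% in PRP43_Gal. Scaled to 18S plus 25S, U158 had 11.2 and 23.1 RPM in PRP43_Glu, against 13.1 and 4.72 in PRP43_Gal, with overlap, a log2 change of 0.95 and an edgeR adjusted p of 0.457. On 18S the share of 3' ends at the last nucleotide was 0.0123% and 0.0139% in PRP43_Glu, against 0.0143% and 0.0115% in PRP43_Gal, and these groups overlapped.

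The deposited score compares the read ends at a nucleotide with those of 6 neighbours on each side, and runs from 0 (no protection) to 1 (no read ends). It was used here for U7 to G152 of 5.8S, which have all 6 neighbours on each side. The highest scores on 5.8S lay below the highest on the long rRNAs. On 5.8S the highest was 0.862 and 0.853 in PRP43_Glu, against 0.869 and 0.736 in PRP43_Gal. On 25S the highest was 0.978 and 0.975 in PRP43_Glu, against 0.984 and 0.987 in PRP43_Gal.

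No nucleotide of 5.8S reached 0.75 in all 4 libraries, and 2 reached it in any, G135 and G136, both within the low stretch. G135 scored 0.822 and 0.831 in PRP43_Glu, against 0.869 and 0.736 in PRP43_Gal. A score of at least 0.5 in all 4 libraries was met by 2 nt, G135 and A43, and in at least 1 library by 21 nt. A43 scored 0.600 and 0.700 in PRP43_Glu, against 0.645 and 0.527 in PRP43_Gal. At G, where ends were sparse, the median score was 0.244 and 0.309 in PRP43_Glu, against 0.295 and 0.293 in PRP43_Gal, whereas it was 0 at C and at U in all 4 libraries. U73, which is pseudouridine in yeast 5.8S, scored 0.341 and 0.352 in PRP43_Glu, against 0.314 and 0.350 in PRP43_Gal, with groups that overlapped. Pseudouridine carries no ribose methyl group.

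The scores were tested on counts with the same edgeR fit, with the read ends predicted from the neighbours as offset, and a call also needed a score difference of at least 0.1. Of 5317 nt tested, 0.32% passed as lower in PRP43_Glu and 0% as higher. None of the 146 nt of 5.8S passed in either direction, and 9 had an unadjusted p under 0.05, where the share over all nucleotides tested was 6.94%. DESeq2 passed 1, G136, as higher, and 0.132% of all nucleotides tested. The absolute difference between group means had a median of 0.045 over the 146 nt. The difference between duplicates had a median of 0.044 in PRP43_Glu and 0.073 in PRP43_Gal.

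The largest score differences lay in the hairpin, on both sides of 0. G136 scored 0.862 and 0.853 in PRP43_Glu, against 0.688 and 0.305 in PRP43_Gal, a difference of 0.36 (edgeR adjusted p = 0.158). Its predicted partner C117 scored 0.614 and 0.602 in PRP43_Glu, against 0.428 and 0.092 in PRP43_Gal (difference 0.35, adjusted p = 0.437). On the opposite side, G133 scored 0 and 0.087 in PRP43_Glu, against 0.673 and 0.285 in PRP43_Gal (difference -0.44, adjusted p = 0.495). U121 scored 0.081 and 0 in PRP43_Glu, against 0.517 and 0.307 in PRP43_Gal (difference -0.37, adjusted p = 0.475). At these 4 nucleotides the groups did not overlap, and the PRP43_Gal duplicates differed by 0.21 or more. U147, outside the hairpin, scored 0 in both PRP43_Glu libraries, against 0 and 0.661 in PRP43_Gal (difference -0.33, adjusted p = 0.893), a value of 1 library.

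**Figure D5:**
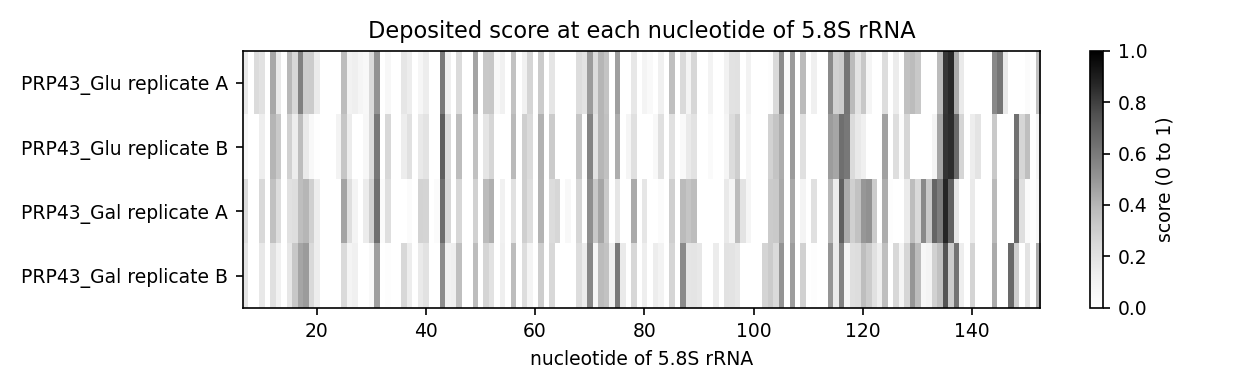
Deposited score (0 white, 1 black) at U7 to G152 of 5.8S rRNA in the 4 libraries, PRP43_Glu above PRP43_Gal. The darkest columns are G135 and G136, and A43 is grey in all 4 libraries.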

How the data were processed

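The deposited read-end counts give, per the file headers, the reads with their 5' end, with their 3' end and in sum at each nucleotide. The authors' score is deposited as a fraction from 0 to 1, and recomputing it from the counts gave the same values to within 5.0e-10 on 5.8S. Trimming and mapping used cutadapt 2.0 and Bowtie2 2.3.4.1, per the submitters' processing notes. The genome build, or how reads were mapped and multiply mapped reads treated, is not given in the sources used here. Columns were matched to libraries by their header names.

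Tests used edgeR 4.0.16 in R 4.3.3 (quasi-likelihood, without a block, library size fixed to read ends on 18S plus 25S, a mean of at least 50 read ends, Benjamini-Hochberg over all references), with exact permutation tests for single values per library. Alternatives used DESeq2 1.42.0 and limma 3.58.1 (pseudocount 1), other scales, each kind of end, and each library left out. Structure was predicted with RNAfold 2.7.2. Named nucleotides were the ends, U73, those that passed, the 5 largest changes that did not and the 3 with most read ends. Those scoring at least 0.75 in all 4 libraries were also to be named, and none did. G135 and A43, with scores of at least 0.5 in all 4 libraries, were named outside that rule. The RNA and the lists were chosen with earlier results of these data known.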

Additional observations from a re-analysis of the deposited data

How the results depend on the processing

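The total on 5.8S kept its direction in all 13 alternatives, at log2 differences of -1.08 to -0.45 when a library was left out. The count of nucleotides that passed as lower in read ends was 1 in the fit reported. It was 0 with a replicate block, 15 with the replicate letters crossed as the block (chosen after seeing the data), 4 without a minimum, 4 with 5' ends alone, 0 with 3' ends alone, 10 with DESeq2, 2 with the 3 rRNAs alone, 2 with TMM factors, 2 with DESeq2 size factors, 5 when scaled to 25S alone, 0 when scaled to 5.8S itself, and 0 to 58 with a library left out. As higher, it was 3 with 5' ends alone and 0 in the other alternatives. In scores, 1 nt passed as lower with crossed letters. As higher, 1 passed with crossed letters, 1 without a minimum and 1 with DESeq2. Score counts with a library left out are not given, because such fits hold 1 library in a group. Calls over all references also moved with the setting, so these counts are not changes of 5.8S alone. As lower in read ends, 9 of 5353 nt of all references passed in the fit reported and 49 of 5353 with crossed letters. The number was 18 of 7537 without a minimum, 15 of 5237 with 5' ends alone and 27 of 5353 with DESeq2. It was 8 of 5349 with the 3 rRNAs alone, 10 of 5353 with TMM factors and 14 of 5353 with DESeq2 size factors. When scaled to 25S alone it was 23 of 5353. With a replicate block, with 3' ends alone and when scaled to 5.8S itself, no nucleotide of any reference passed as lower. In scores with crossed letters, 41 nt of all references passed as lower and 8 as higher, against 17 and 0 in the fit reported. In scores without a minimum, 24 of 7441 nt passed as lower and 2 as higher. With DESeq2 33 of 5317 passed as lower in scores and 7 as higher. G136 kept its direction in all 18 alternatives and its call in 14, and with a replicate block its adjusted p was 0.129. The share of the middle segment differed by -2.09 percentage points with 5' ends alone, against 1.15 in the fit reported. That of the 3' segment differed by -2.50 with 3' ends alone and by -1.35 to 1.91 with a library left out, against 0.28 in the fit reported. The cause of these changes was not tested. Same-letter libraries deviated with a correlation of -0.17 over 5353 nt, and with 2 pairs the letters were not taken as pairs. Every tested score has all 6 neighbours on each side, so that alternative is the fit reported. At G136 in PRP43_Glu, 11 and 43 5' ends were too few to test alone.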
